A study of Arabidopsis thaliana with 2 samples.

Results

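The regions described are 480 peaks that were found with the SEP3Δtet-AGΔtet complex, share no base with any peak of the SEP3Δtet3M-AG complex, and have their midpoint between the start and the end of an Arabidopsis protein-coding gene. The members were thus chosen by 2 measured values, the presence of a peak in one list and its absence from the other, together with the position of the midpoint. They make up 41.9% of the 1146 peaks found with SEP3Δtet-AGΔtet alone (95% exact Clopper-Pearson interval 39.0 to 44.8) and 21.1% of the 2277 peaks in that list. Of its 1131 peaks that overlap a SEP3Δtet3M-AG peak, 583 had their midpoint in a gene, and of the whole list 46.7%. Moving the peaks of this list by 2000 bp or more gave a higher share, 59.4 to 61.0%. The 2 lists together hold 3958 peaks. The assay, seq-DAP-seq, is a form of DNA affinity purification in which protein complexes made outside the plant capture fragments of purified genomic DNA. Both complexes, SEP3Δtet-AGΔtet and SEP3Δtet3M-AG, combine the proteins SEPALLATA3 (SEP3) and AGAMOUS (AG), are described by the submitters as tetramerization mutants, and were given untreated DNA of 2-weeks old seedlings. Because both samples carry SEP3Δtet3M-AG as their genotype label, the sample titles were used to tell the complexes apart. What 3M stands for is not explained in the labels. The unaltered SEP3-AG complex was not analysed here.

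Both proteins belong to the MADS-domain transcription factors, which bind as dimers to an A/T-rich element known as the CArG box. A pair of dimers can join into a tetramer that holds neighbouring elements, and SEP3 and AG together specify stamens and carpels in the flower. Affinity purification on naked DNA reads out what the proteins can bind without chromatin, so a peak in a gene is a binding position on purified DNA and not a change in that gene's activity.

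Each complex has 1 peak list from 1 sample. The files used here hold a chromosome, a start and an end, and every peak is 400 bp wide. They carry no score, height, summit or depth, so a peak is present or absent, the depth behind it is unknown, and no replicate error could be estimated. The absence of a SEP3Δtet3M-AG peak at a member therefore means that none was listed, and weaker binding or a shallower library cannot be told apart from no binding. Intervals are 95% exact intervals on the counting of peaks or genes. Tests over peaks describe these lists and do not test a difference between the complexes, since peaks of 1 list are not replicates. Genes come from the TAIR10.1 RefSeq gene table, which gives start and end without strand or exons, so positions are measured from the nearer end of a gene and the start and the end of a gene are not told apart. No source used here names the build of the peak files, and peak coordinates below are those of the files, counted from 1.

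The 480 peaks fell in 475 genes, which are called carriers here. They were spread thinly: 468 carriers held 1 such peak and 7 held 2, the most in any gene. Of all 27444 protein-coding genes on the 5 nuclear chromosomes, the carriers are 1.73%. The corresponding share was 2.12% for the 583 SEP3Δtet-AGΔtet peaks inside genes that overlap a SEP3Δtet3M-AG peak, called shared peaks here, and 1.07% for the 294 in-gene peaks found with SEP3Δtet3M-AG alone. The midpoint lay in 2 overlapping genes for 2 of the 480 peaks. By chromosome the share of genes that are carriers ranged from 1.60% on chromosome 2 (interval 1.25 to 2.02) to 1.91% on chromosome 1 (interval 1.61 to 2.26), and the intervals of all 5 chromosomes overlap.

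Most of these peaks lay more than 10000 bp from the other list. The distance between a member peak and the nearest SEP3Δtet3M-AG peak had a median of 21606 bp, with quartiles of 8818 and 42576 bp. Over all 1146 SEP3Δtet-AGΔtet-only peaks, which include the 480 members, the median was 20689 bp. The remaining peaks of that set were not measured apart from the members. Within 1000 bp lay 22 of the 480 (4.58%), and within 10000 bp lay 134 (27.9%). The rule itself sets the lower limit of these distances, so they are given as a description. The member farthest from the other list lay in CPK22, a calcium-dependent protein kinase gene (chromosome 4, 2392000 to 2392399), 270656 bp away. AT5G36930 followed with a distance of 240894 bp, and AMSH1, a deubiquitinating enzyme gene, with 165385 bp.

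**Figure D1:**
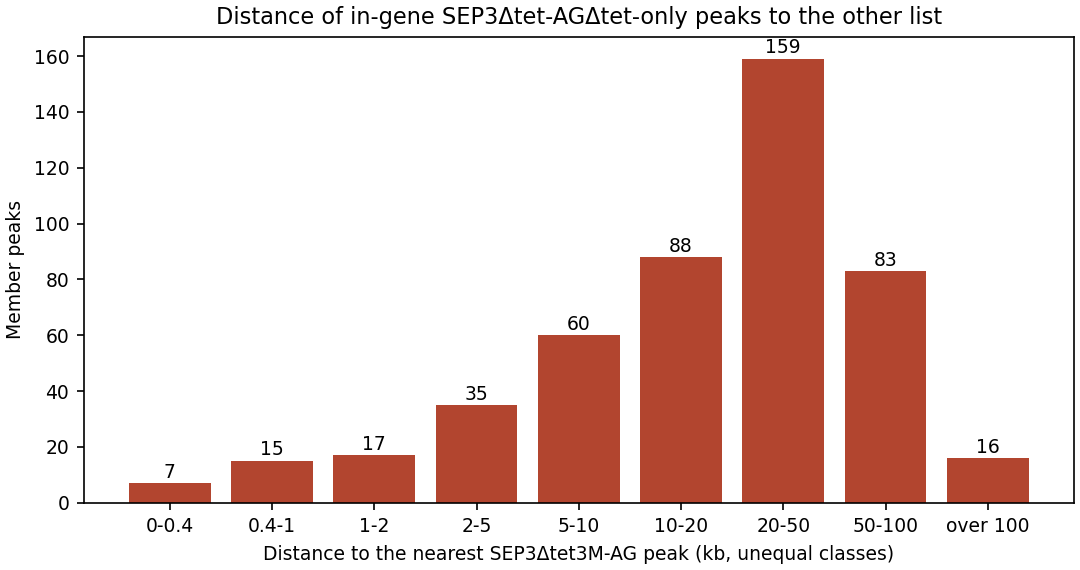
Number of in-gene SEP3Δtet-AGΔtet-only peaks (vertical axis) by distance to the nearest SEP3Δtet3M-AG peak (horizontal axis, kb, classes of unequal width). Only 7 peaks lie within 0.4 kb of the other list, and the fullest class, from 20 to 50 kb, holds 159.

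At the edge of the rule the calls were close. The member nearest to a SEP3Δtet3M-AG peak lay in SWEET2, a vacuolar sugar transporter gene, with 17 bp between the peaks (chromosome 3, 4959191 to 4959590). AT3G27325 had a gap of 44 bp, QUL2, a relative of the pectin gene QUASIMODO2, one of 67 bp, AT5G60142 one of 83 bp and AT3G51450 one of 101 bp. On the other side, the shared in-gene peak with the least overlap lay in SKU5, a root growth gene, with 55 bp in common with the other list. It was followed by AT2G34360 with 85 bp, AT2G26940 with 132 bp, MYB27 with 195 bp and AT1G54890 with 253 bp. Few peaks lay in this border zone: 7 members had a gap of at most 400 bp.

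Nearly all carriers had no further peak in the gene, and most genes of any kind hold none. Of the 475, 24 (5.05%) also held a SEP3Δtet3M-AG peak elsewhere in the gene, overlapping the other list or not. A shared SEP3Δtet-AGΔtet peak was also held by 15 (3.16%). Over all protein-coding genes, 2.12% held a shared peak and 1.07% a SEP3Δtet3M-AG-only peak. The 1.07% is no match for the 5.05%, which counts any SEP3Δtet3M-AG peak, and the matching share of all genes is not given here. The genes of member peaks are also longer than genes at large (median 3038 against 2078 bp). Whether the carriers differ from these shares was not tested. RAP2.7, better known as TOE1, an AP2-type repressor of flowering, held a shared peak and a member peak at chromosome 2, 12225728 to 12226127, which lay 1398 bp from the other list. PYL1, an abscisic acid receptor gene, also held a shared peak, and its member peak (chromosome 5, 18983602 to 18984001) lay 677 bp from the other list. CAT3, which encodes a catalase (AT1G20620), HAC1, a histone acetyltransferase gene, KUP10, a potassium transporter gene, and ARABIDILLO-2, an armadillo-repeat F-box gene, likewise held both kinds. At the remaining 451 carriers no SEP3Δtet3M-AG peak had its midpoint in the gene.

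The 7 genes with 2 member peaks ranged in length from 2611 to 17748 bp. TOR, which encodes the growth-regulating kinase TARGET OF RAPAMYCIN, is the longest carrier at 17748 bp, and its peaks (chromosome 1, 18523301 to 18523700 and 18523773 to 18524172) lay 1252 and 1724 bp from the nearer end. EBS1, a glycoprotein quality-control enzyme gene of 10410 bp, had its peaks 3415 and 1014 bp from the nearer end. PFA-DSP1, a phosphatase gene of 3331 bp, had them 890 and 353 bp from the ends. The other four were AT3G13600, AT3G27325, AT3G28770 and AT4G03610, with lengths between 2611 and 7409 bp. AT3G28770 also held a shared peak.

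Member peaks lay in genes longer than the average gene, which the rule favours. A longer gene offers more room for a midpoint, so this excess is not read as a trait of these peaks. Over the 480 peaks the host gene had a median length of 3038 bp (quartiles 2207 and 4137), against 2987 bp (quartiles 2178 and 3894) over shared peaks and a median of 2078 bp over all protein-coding genes. Genes longer than 3014 bp, the median of both peak sets, held 50.8% of member peaks and 49.2% of shared peaks, a difference of 1.61 percentage points (95% normal-approximation interval -4.43 to 7.64; two-sided Fisher's exact p = 0.622, Benjamini-Hochberg adjusted over 4 tests p = 0.830). No difference in gene length between member and shared peaks was detected.

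The share of genes that carry a member peak grew with gene length. It was 0.297% for genes under 1000 bp (13 of 4377, interval 0.158 to 0.507) and 1.88% for those of 2000 to 3000 bp (140 of 7430, interval 1.59 to 2.22). It reached 4.88% for genes of 6000 bp or more (43 of 881, interval 3.55 to 6.52). The longest carriers after TOR were AT2G36810, also called SGR6, a gene of shoot gravitropism (14322 bp), AT2G26780 (13949 bp), the ABC transporter gene ABCA1 (13412 bp) and POK2, a kinesin gene that orients the cell plate (12530 bp). Counted per length of gene, the density varied less, between 4.60 member peaks per Mb in genes under 1000 bp and 8.83 per Mb in genes of 3000 to 4000 bp. In genes of 6000 bp or more it was 6.51 per Mb.

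**Figure D2:**
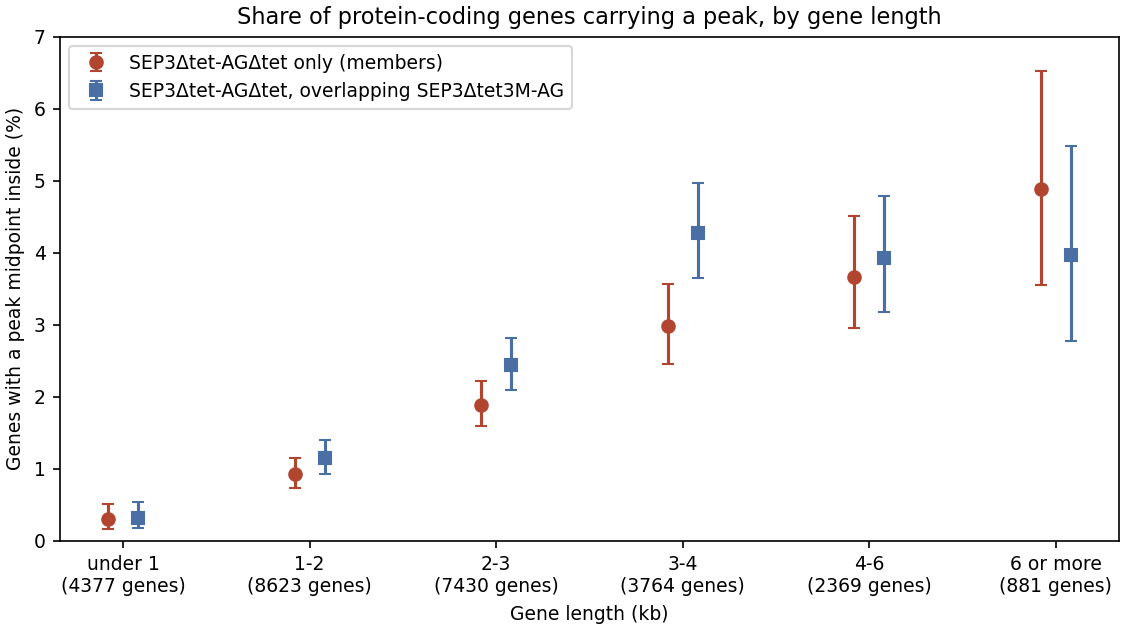
Share of protein-coding genes with a peak midpoint inside (vertical axis, percent) by gene length (horizontal axis, kb, with the number of genes), for SEP3Δtet-AGΔtet-only peaks (circles) and for shared SEP3Δtet-AGΔtet peaks (squares). Bars are exact 95% intervals. Member peaks go from 0.297% of genes under 1 kb to 4.88% of genes of 6 kb or more.

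How member peaks compared with an even spread along the gene depended on the division. The midpoint lay a median of 633 bp from the nearer end (quartiles 222 and 1168), or 21.5% of the gene's length, against 582 bp (quartiles 256 and 971), or 20.8%, for shared peaks. The outer 25% at each end, together 50% of a gene's length, held 266 of 480 member peaks (55.4%, interval 50.8 to 59.9) and 342 of 583 shared peaks (58.7%, interval 54.5 to 62.7). The difference was -3.25 percentage points (interval -9.22 to 2.73; two-sided Fisher's exact p = 0.290, adjusted p = 0.581). Within 500 bp of the nearer end lay 41.2% of member peaks and 41.5% of shared peaks, a difference of -0.259 points (interval -6.21 to 5.69; Fisher's exact p = 0.95, adjusted p = 0.95). The whole 400 bp lay inside the gene for 370 members (77.1%), and of these 42.2% lay in the outer 25% at each end, a selection that leaves out midpoints close to an end.

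Of 8 alternative settings for this measure, 1 gave a difference that passed, and it was the only one that changed the division. The others kept 25% at each end and changed which peaks or genes were counted. The adjustment covered the 4 tests of a setting and not the alternatives. With the outer 33.3% at each end in place of 25%, 67.1% of member peaks lay in the outer part, against 74.8% of shared peaks, a difference of -7.70 points (two-sided Fisher's exact adjusted p = 0.0256). An even spread puts 66.7% there. In classes of 10% of the gene's length, counted from the nearer end, the innermost class held 20% of member peaks (interval 16.5 to 23.9), 14.2% of shared peaks (interval 11.5 to 17.3) and 15.3% of SEP3Δtet3M-AG-only peaks (interval 11.4 to 19.9). An even spread along the gene gives 20% in each class. The outermost class held 27.9%, 24.0% and 26.5% of the 3 sets in that order. As examples, ABCA1 had its peak 49.5% of the gene's length from the nearer end, KCS2, an enzyme gene of wax and suberin synthesis, at 49.6% and GA2OX4, which inactivates gibberellin, at 49.3%.

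**Figure D3:**
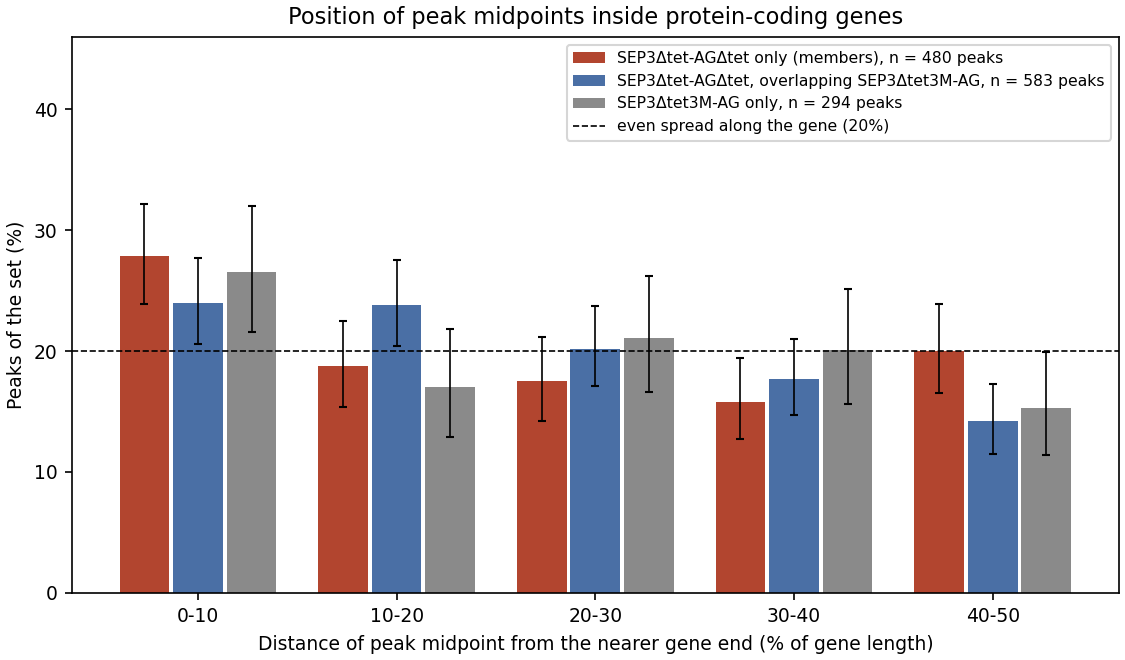
Share of the in-gene peaks of each set (vertical axis, percent) by distance of the peak midpoint from the nearer gene end (horizontal axis, percent of gene length, so 50 is the middle of the gene). Bars are SEP3Δtet-AGΔtet-only, shared and SEP3Δtet3M-AG-only peaks from left to right with exact 95% intervals, and the dashed line is an even spread. In the innermost class the members stand at 20% and the shared peaks at 14.2%.

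Member peaks did not crowd together more than shared ones by a detectable amount. Another SEP3Δtet-AGΔtet peak lay in the same gene for 28 members (5.83%, interval 3.91 to 8.32) and for 21 shared peaks (3.60%, interval 2.24 to 5.45), a difference of 2.23 points (interval -0.354 to 4.82; two-sided Fisher's exact p = 0.105, adjusted p = 0.421). Each peak of a gene with 2 or more was counted, and genes with both kinds, 15 of the carriers, counted on both sides. These counts are therefore not independent, as the test and the intervals assume. The next peak of the same list lay a median of 15554 bp away for members and 15540 bp for shared peaks. Neighbouring protein-coding genes were both carriers in 7 pairs, and in 2 of these pairs the genes overlap and share 1 peak. The gibberellin gene GA2OX4 and the transcription factor gene MYB112 form one pair with separate peaks, and CYP704A1 and ARABIDILLO-1 another.

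Few member peaks touched annotated non-coding genes. A base in a long non-coding or antisense RNA gene was found for 13 members (2.71%, interval 1.45 to 4.59) and 8 shared peaks (1.37%, interval 0.594 to 2.69). No member touched a microRNA gene, a pseudogene or a tRNA, snRNA or snoRNA gene, and the exact upper bound on 0 of 480 is 0.766%. Of the shared peaks, 2 (0.343%) touched a tRNA, snRNA or snoRNA gene and 0 a microRNA gene or a pseudogene. Both sets have their midpoint inside a protein-coding gene, which limits such contacts, so these counts are not read as a result. A second protein-coding gene was touched by 29 members (6.04%) and by 36 shared peaks (6.17%).

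Gene families were assigned by gene symbol or synonym in the gene table, which gives a symbol other than the locus to 48.8% of carriers and 37.8% of all protein-coding genes. Named genes are thus carriers more often than genes at large, and the 1.73% of all genes is a low mark for families found by name. Of 36 families searched, 33 held at least 1 carrier, and 85 of the 475 carriers belonged to any. Of the 36, 13 were added after the carriers had been seen, because several carriers shared a name, and their shares are not read against the 1.73% of all genes. They are the receptor-like protein, serine carboxypeptidase-like, SAUR, DOF, beta-glucosidase, UMAMIT, SWEET, KUP, cellulose synthase, trichome birefringence-like, LACS and KCS, Nudix and PYR/PYL families. All 6 gene lists described below, of MADS-box, auxin, other hormone, flowering-time, flower and meristem, and housekeeping genes, were likewise written with the carriers known. No list or family was tested, and the share of carriers also grows with gene length.

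MADS-box genes, the family to which SEP3 and AG belong, held 3 carriers among 46 genes of the MIKC type (6.52%, interval 1.37 to 17.9), a type with a keratin-like domain that includes the floral organ genes. The same genes held shared peaks at 11 (23.9%, interval 12.6 to 38.8) and SEP3Δtet3M-AG-only peaks at 2. AGL8, also called FRUITFULL or FUL, a regulator of fruit and meristem fate, had its peak 1204 bp from the nearer end of a gene of 3836 bp (chromosome 5, 24504866 to 24505265), and the nearest SEP3Δtet3M-AG peak was 7914 bp away. AGL79, its relative in the AP1 and FUL clade, had its peak only 27 bp inside the gene (chromosome 3, 11908698 to 11909097), 62786 bp from the other list. AGL94, of the pollen-expressed MIKC* group, had its peak 394 bp from the nearer end (chromosome 1, 26147158 to 26147557) and 7107 bp from the other list. None of the 3 held a shared peak in the gene.

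Carriers among the auxin genes included a receptor, repressors and response factors. Of 82 genes of auxin synthesis, transport and response, 7 carried a member peak (8.54%, interval 3.5 to 16.8), 1 carried a shared peak (1.22%, interval 0.0309 to 6.61) and 1 a SEP3Δtet3M-AG-only peak. The split from the other hormone genes was also made with the carriers known, so the share is not read against the 1.73% of all genes. TIR1, the F-box auxin receptor, had its peak 39.7% of the gene's length from the nearer end (chromosome 3, 23275014 to 23275413). The Aux/IAA repressor genes IAA5 and IAA34 had theirs near the middle, at 41.1% and 39.8%, and the IAA34 peak lay 408 bp from a SEP3Δtet3M-AG peak. Among 23 auxin response factor genes, ARF1, ARF4 and ARF9 were carriers (13%, interval 2.78 to 33.6), 0 held a shared peak (interval 0 to 14.8) and 0 a SEP3Δtet3M-AG-only peak. ARF4, which also sets organ polarity, had its peak 1061 bp from the nearer end of a gene of 4530 bp. Of the 79 small auxin up-regulated (SAUR) genes, AT2G16580, AT2G21210 and AT4G34790 were carriers (3.8%, interval 0.790 to 10.7).

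Other hormone pathways had carriers among receptors, signalling proteins and enzymes. Of 109 such genes, 8 carried a member peak (7.34%, interval 3.22 to 14), 7 a shared peak (6.42%, interval 2.62 to 12.8) and 1 a SEP3Δtet3M-AG-only peak. COI1, the jasmonate receptor, had its peak 39.2% of the gene's length from the nearer end and 62112 bp from the other list (chromosome 2, 16674343 to 16674742). For abscisic acid, the receptor genes PYL1 and PYL10 and the kinase gene SNRK2.2 were carriers. CPD, a P450 enzyme of brassinosteroid synthesis, and BEH3, a relative of the brassinosteroid regulators BES1 and BZR1, had peaks 1436 and 1417 bp from the nearer end. The remaining carriers were GA2OX4 and RR2, a cytokinin response regulator gene whose peak lay 123 bp from the end.

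Flowering-time genes with a member peak were 6 of 49 listed (12.2%, interval 4.63 to 24.8), against 3 with a shared peak (6.12%) and 1 with a SEP3Δtet3M-AG-only peak. Several of the 6 were put on the list with their peaks known, so its share is not read against that of all genes. TOE1 is described above. ELF7, a subunit of the PAF1 elongation complex, had its peak near the middle of the gene, at 48.5% (chromosome 1, 30002163 to 30002562). FIO1, an RNA methyltransferase gene, the clock gene PRR3 and the B-box gene BBX19 had theirs 201, 251 and 290 bp from the nearer end. HAC1 had its peak 231 bp from the nearer end of a gene of 8399 bp.

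Genes of flower and meristem development, a list of the same kind, held 6 carriers among 73 (8.22%, interval 3.08 to 17.0), 4 genes with a shared peak (5.48%) and 0 with a SEP3Δtet3M-AG-only peak. BOP1, which acts at organ boundaries and in floral patterning, had its peak at 38.6% of the gene's length (chromosome 3, 21148393 to 21148792). CYP78A9, a P450 gene of fruit growth, had its peak 90563 bp from the other list (chromosome 3, 22906590 to 22906989). SWEET9, the nectary sugar transporter gene, had its peak at 41.4% of the gene's length and WOX8, a gene of embryo patterning, at 47.7%. LSH1, of the ALOG family, and ARF4 complete the group. Of 22 housekeeping and photosynthesis genes, 0 carried a member peak, an exact interval of 0 to 15.4%, and 0 a shared peak. With so few genes this is not read as a result.

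**Figure D4:**
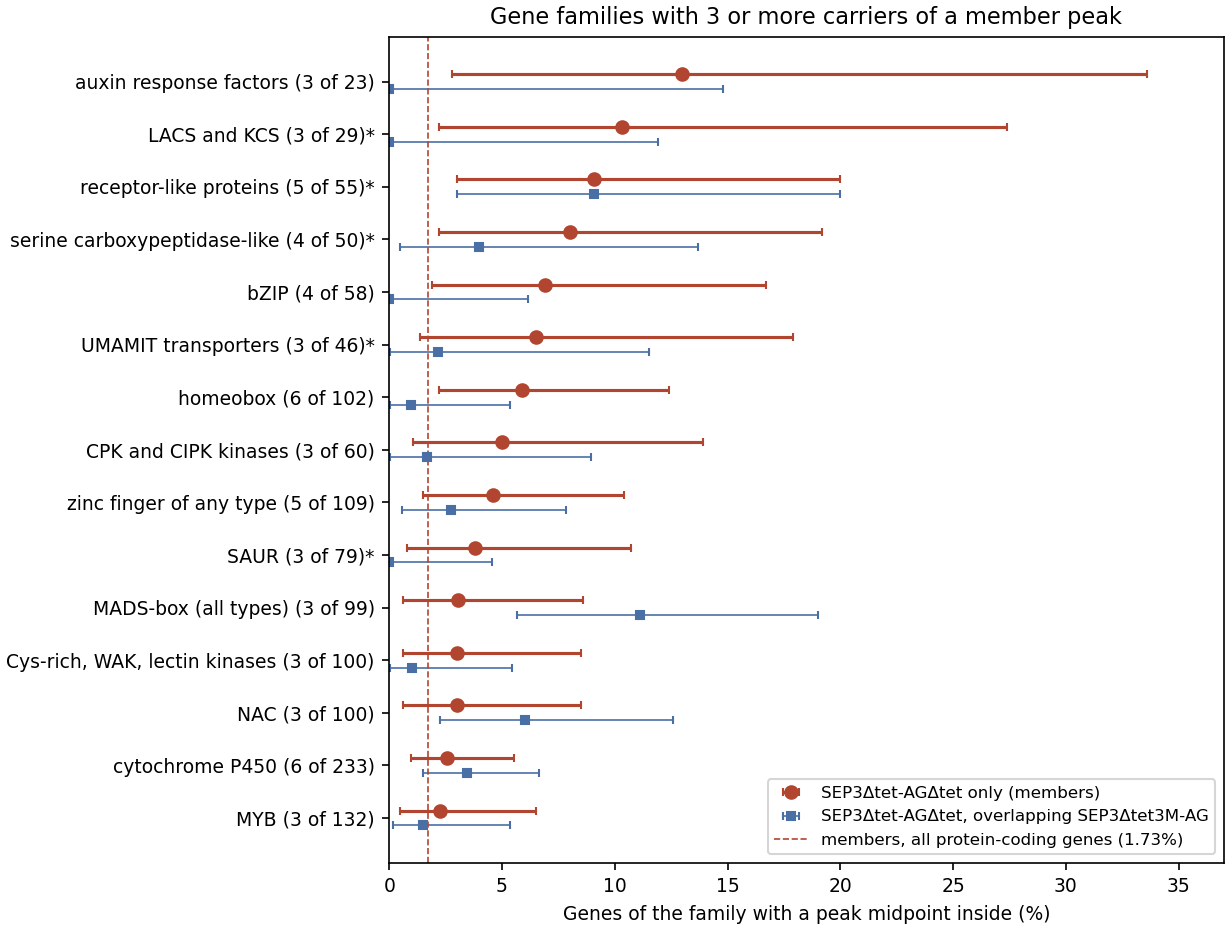
Share of the genes of each family with a peak midpoint inside (horizontal axis, percent), for SEP3Δtet-AGΔtet-only peaks (circles) and shared SEP3Δtet-AGΔtet peaks (squares), in the families with at least 3 carriers (carriers of genes in the family beside each name). Bars are exact 95% intervals, the dashed line is the 1.73% of all protein-coding genes that are carriers, and an asterisk marks families added after the carriers were seen. Families were found by name, and named genes are carriers more often than all genes, so the line is a low mark. Auxin response factors stand highest with 3 of 23, and the MADS-box family has more genes with a shared peak (11) than with a member peak (3).

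Among other transcription factors, homeobox genes held 6 carriers of 102 (5.88%, interval 2.19 to 12.4), 1 gene with a shared peak (0.980%, interval 0.0248 to 5.34) and 3 with a SEP3Δtet3M-AG-only peak. The differences between these counts were not tested. HDG1 and HDG2, which act in the epidermis, KNAT7, a regulator of secondary cell walls, the zinc finger homeodomain genes HB22 and ZFHD1, and WOX8 were the 6, and HDG1 also held a SEP3Δtet3M-AG peak. The HDG2 peak lay at 46.9% of the gene's length, and those of KNAT7 and ZFHD1 lay 127 and 103 bp from the nearer end. The bZIP family held 4 carriers of 58 (6.90%, interval 1.91 to 16.7), 0 genes with a shared peak (interval 0 to 6.16%) and 0 with a SEP3Δtet3M-AG-only peak. These were TGA3 and TGA4, which act in salicylic acid responses, GBF3, which binds G-boxes, and bZIP6. NAC genes held 3 carriers of 100 (3%, interval 0.623 to 8.52), namely NAC038, NAC067 and NAC096, with 6 genes holding a shared peak and 1 a SEP3Δtet3M-AG-only peak. MYB genes held 3 carriers of 132 (2.27%, interval 0.471 to 6.50), close to the share of all genes, itself a low mark for named families. AP2/ERF genes held 1 of 48 (2.08%), against 4 with a shared peak (8.33%). None of the 22 genes named as bHLH (interval 0 to 15.4%), 19 GRAS (0 to 17.6%) and 16 TCP genes (0 to 20.6%) was a carrier. With 1.73% of all genes as carriers, so few genes may well hold none, and these counts are not read as a result. Of the TCP genes, 1 held a shared peak (6.25%). The 22 bHLH genes are only those so named in the gene table, and MUTE, a bHLH gene outside them, was a carrier.

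Outside transcription factors, and in a family added after the carriers were seen, receptor-like proteins, cell-surface proteins without a kinase domain, held 5 carriers of 55 (9.09%, interval 3.02 to 20), as many genes with a shared peak and 0 with a SEP3Δtet3M-AG-only peak. RLP19 had its peak 61673 bp from the other list (chromosome 2, 6535871 to 6536270), and RLP7, RLP45 and RLP54 had theirs 5380, 6843 and 8673 bp away. RLP26 was the fifth, at 3360 bp. The genes belong to a multigene family, and how reads that fit several copies were treated is not given in the sources used here. Serine carboxypeptidase-like genes held 4 carriers of 50 (8%, interval 2.22 to 19.2). Cytochrome P450 genes held 6 of 233 (2.58%, interval 0.951 to 5.52), near the share of all genes, which is a low mark for named families. A shared peak was held by 8 (3.43%) and a SEP3Δtet3M-AG-only peak by 1. CYP86A2, an enzyme gene of cutin synthesis, had its peak 258 bp from the nearer end, and those of CYP96A3 and CYP704A1 lay at 26.9% and 29.9% of the gene's length. The zinc finger genes named so in the table held 5 carriers of 109 (4.59%, interval 1.51 to 10.4), among them HB22, BBX19, ZFHD1 and DOF2, whose peak lay 114 bp from the end. This match by name misses some zinc finger genes, such as the carrier HCA2 of the DOF family.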

How the data were processed

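Peaks of 2 complexes were analysed, 1 list each. The deposited files give each peak's chromosome, start and end in 3 columns without a header. Bowtie2, SAMtools and MACS2 are listed, with no versions, per the submitters' processing notes. Settings, build, read numbers and any pooling are not stated in the labels. The authors' deposited peaks are all 400 bp wide and carry no score.

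A SEP3Δtet-AGΔtet peak was a member when it shared no base with any SEP3Δtet3M-AG peak and its midpoint lay inside a protein-coding gene of the TAIR10.1 table. Moving all peaks by 2000 bp or more put 59.4 to 61.0% (SEP3Δtet-AGΔtet) and 57.6 to 59.5% (SEP3Δtet3M-AG) of midpoints inside genes, against 46.7% and 52.2% as deposited. Where a midpoint lay in 2 genes, peak measures used the first by locus. Shares were compared with shared peaks of the same list by two-sided Fisher's exact test, Benjamini-Hochberg adjusted over 4 tests (Python 3.11.15, SciPy 1.17.1, pandas 2.3.3), after testing on simulated data. The tests planned by strand, exon and CArG box were not run, as no strand, exon or genome sequence was used here. Families that need product names (pentatricopeptide, MATE, helicase and most kinase genes) were not searched.

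Members, lists and family rules were chosen with earlier results of these data known, and the lists with the carriers known. Of 36 families, 23 were named in the design and 13 were added after the carriers were seen, and name patterns that matched wrong genes were corrected after seeing the output. Named are carriers in the lists, those with 2 member peaks, up to 4 from families with at least 5 carriers (farthest from the other list first), the 5 nearest to the threshold on either side, and the 5 longest. Other names were chosen after their values were seen. One carrier that the rule names is not reported here.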

Additional observations from a re-analysis of the deposited data

How the results depend on the processing

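The number of member peaks was 480 and ranged from 370 (whole peak inside the gene) to 636 (any base in common) over 7 alternatives, and the number of carriers ranged from 363 to 668 over 8. The alternatives were 200 bp of overlap, midpoints within 100 bp, no SEP3Δtet3M-AG peak within 1000 bp, both rules for inside a gene, midpoints in exactly 1 gene and merged peaks, with genes of every type for the carriers. Of the differences between member and shared peaks, that in the outer part of the gene passed with 33.3% in place of 25% at each end (-7.70 points, Fisher's exact adjusted p = 0.0256) and kept its sign in 8 of 8. The difference within 500 bp of the nearer end, -0.259 points, changed sign with midpoints within 100 bp (0.00214), any base in common (1.97) and 250 bp from the end (1.51). That in gene length, 1.61 points, changed sign with any base in common (-0.451). That for another peak in the same gene kept its sign in 7 of 7 (0.328 to 3.17 points). For the changes of sign the cause was not tested, and none of these values passed (adjusted p from 0.622 to 1). A stricter peak threshold could not be tried without scores. No paired analysis was possible because each complex has 1 list. The depth is unknown, so how many members are absent from the other list for lack of reads was not tested.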

Other observations

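Several carriers are close relatives of each other, a description chosen after the carriers were seen and not tested. Both ARABIDILLO genes, F-box proteins of lateral root development, carried a member peak, at 48.2% of the gene's length from the nearer end in ARABIDILLO-1 and at 19.0% in ARABIDILLO-2. AMSH1 and AMSH3, 2 of 3 genes with that symbol, had theirs at 46.7% and 41.0%. The kinesin genes POK2 and PAKRP1, which act at the plane of cell division, had peaks 1610 and 620 bp from the nearer end, and these were 2 of 23 genes named as kinesins. The potassium transporter genes KUP9 and KUP10 had them 508 and 440 bp from the end.

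Long-chain acyl-CoA synthetase and ketoacyl-CoA synthase genes, which make precursors of surface and membrane lipids, formed a family added after the carriers were seen. It held 3 carriers of 29 (10.3%, interval 2.19 to 27.4), 0 genes with a shared peak (interval 0 to 11.9%) and 2 with a SEP3Δtet3M-AG-only peak. The carriers were KCS2, LACS2 and LACS4, with peaks at 49.6%, 27.2% and 1.81% of the gene's length from the nearer end, and LACS4 also held a SEP3Δtet3M-AG peak.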
